A study of Mus musculus with 3 samples.

Results

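The genes described here are 10 genes of the MHC class I pathway, measured in endothelial cells sorted from mouse gastrocnemius muscle. They were taken by symbol from the 41605 gene rows of the count matrices, and all 10 were detected in each of the 3 libraries. H2-D1 and H2-K1 encode the classical heavy chains, H2-Q4, H2-Q6, H2-Q7 and H2-T23 encode non-classical heavy chains, and B2m encodes the light chain beta-2 microglobulin. Tap1, Tap2 and Tapbp encode the peptide transporter and tapasin. The list was drawn up because several of these genes were higher in capillary-like cells of the running library, so their levels there are a description and no test was made on them.

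A class I molecule is a heavy chain bound to beta-2 microglobulin and a short peptide. Proteasomes cut cytosolic proteins into peptides, the transporter formed by Tap1 and Tap2 carries the peptides into the endoplasmic reticulum, and tapasin holds an empty class I molecule at the transporter until a peptide binds. The finished complex is shown at the cell surface to CD8 T cells, and its absence is read by natural killer cells. H2-Q6 and H2-Q7 encode Qa-2 antigens, and H2-T23 encodes Qa-1, which presents leader peptides of classical heavy chains to receptors on natural killer cells. Endothelial cells express class I genes at rest, and interferons raise the expression of these genes.

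Each group had 1 library of C57BL/6N mice. The running library came from mice caged singly with a wheel for 14 days of voluntary running, and the sedentary library from mice caged singly with no wheel. The third library, called untreated here, carries the label of no treatment, and its title says no more than muscle cells. How those mice were housed is not given in the sources used here. Muscle was digested with Dispase II and Collagenase IV, and CD31+ CD45- cells that excluded SYTOX blue were sorted and loaded on a 10x Chromium device. The number of animals behind each library, and any date or batch, is not given, so batch and group cannot be told apart in any comparison below.

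After filtering, 3212 running, 4016 sedentary and 4326 untreated cells remained, with a median per deposited barcode of 1518, 1122 and 1582 unique molecular identifiers (UMIs, each standing for 1 captured transcript). Cells were clustered and named from vessel markers. Capillary-like clusters held 2423 running, 3235 sedentary and 2515 untreated cells, artery-like clusters 350, 397 and 1048, and vein-like clusters 230, 239 and 605. All 11 endothelial markers were detected in the capillary-like cells of each library, at a summed 12012, 12898 and 10357 CPM (a gene's UMIs scaled to the class total of its library). The largest capillary-like cluster differed by library and was cluster 0 in running (1053 cells, led by Cdkn1a and Jund), cluster 1 in sedentary (1148 cells, a median of 683 UMIs) and cluster 3 in untreated (1231 cells). None of the top 10 genes of clusters 0, 1 and 9 was a capillary marker, and none was a marker of another vessel. Cluster 5, also named capillary-like (184 running, 354 sedentary and 449 untreated cells), had the capillary marker Btnl9 and the artery marker Hey1 in its top 10. With at least 500 genes per cell, a cluster led likewise by Btnl9, Unc5b and Rbp7 was named artery-like. Among kept cells, 23 barcodes were shared by running and sedentary, 20 by running and untreated, and 32 by sedentary and untreated.

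The gene starts of 6 heavy chain genes are shown because they include the 3 members at least 25% higher in running than in sedentary capillary-like cells (H2-Q4, H2-Q6 and H2-Q7), the classical genes and H2-T23. The sequences are from RefSeq on GRCm38.p6, 300 bases each, and run 5′ to 3′ on the strand of the gene from 250 bases before the start to 50 bases after its first base. Of the 10 members, 9 had an entry. Capitals mark a kappaB match (letters GGGATTNCC) and an interferon response element match (letters GAANNGAAA), each searched on both strands. The windows are chr17:35379367-35379666 for H2-Q4, chr17:35424600-35424899 for H2-Q6, chr17:35438905-35439204 for H2-Q7 and chr17:35262844-35263143 for H2-D1, all on the plus strand. H2-K1 is at chr17:34000298-34000597 and H2-T23 at chr17:36032652-36032951, both on the minus strand, and the H2-K1 window is 1 of 2 listed for that gene.
H2-Q4: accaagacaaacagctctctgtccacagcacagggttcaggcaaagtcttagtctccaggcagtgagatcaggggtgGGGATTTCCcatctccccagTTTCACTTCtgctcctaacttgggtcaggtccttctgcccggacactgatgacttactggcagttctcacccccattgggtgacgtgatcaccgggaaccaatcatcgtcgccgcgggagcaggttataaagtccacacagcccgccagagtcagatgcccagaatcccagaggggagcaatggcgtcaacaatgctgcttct
H2-Q6: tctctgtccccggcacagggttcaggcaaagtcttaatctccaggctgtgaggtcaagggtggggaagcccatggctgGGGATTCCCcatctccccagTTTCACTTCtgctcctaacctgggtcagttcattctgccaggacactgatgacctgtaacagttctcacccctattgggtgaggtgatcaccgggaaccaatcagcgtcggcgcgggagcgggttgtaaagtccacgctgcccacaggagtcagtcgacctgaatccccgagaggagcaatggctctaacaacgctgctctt
H2-Q7: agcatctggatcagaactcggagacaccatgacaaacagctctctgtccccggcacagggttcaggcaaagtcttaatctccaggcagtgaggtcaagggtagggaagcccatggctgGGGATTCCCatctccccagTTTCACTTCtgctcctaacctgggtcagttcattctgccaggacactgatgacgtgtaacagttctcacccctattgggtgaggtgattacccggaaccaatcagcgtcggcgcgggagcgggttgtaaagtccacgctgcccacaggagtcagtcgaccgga
H2-D1: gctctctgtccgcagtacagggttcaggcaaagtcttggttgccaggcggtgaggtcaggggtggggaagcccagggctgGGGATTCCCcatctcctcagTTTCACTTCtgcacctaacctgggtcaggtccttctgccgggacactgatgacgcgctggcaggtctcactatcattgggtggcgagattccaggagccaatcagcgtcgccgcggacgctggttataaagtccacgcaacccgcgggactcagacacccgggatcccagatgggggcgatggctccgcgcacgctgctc
H2-K1: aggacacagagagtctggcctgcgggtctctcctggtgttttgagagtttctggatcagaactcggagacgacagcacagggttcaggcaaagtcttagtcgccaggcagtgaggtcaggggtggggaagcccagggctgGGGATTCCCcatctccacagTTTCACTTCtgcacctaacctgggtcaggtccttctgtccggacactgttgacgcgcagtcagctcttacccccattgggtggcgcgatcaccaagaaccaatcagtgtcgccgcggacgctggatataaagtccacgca
H2-T23: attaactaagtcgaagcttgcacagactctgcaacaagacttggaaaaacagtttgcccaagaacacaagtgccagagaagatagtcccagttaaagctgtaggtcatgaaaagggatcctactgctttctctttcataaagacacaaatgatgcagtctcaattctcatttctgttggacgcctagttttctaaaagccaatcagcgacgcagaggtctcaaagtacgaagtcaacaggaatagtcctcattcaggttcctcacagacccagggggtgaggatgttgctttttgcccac

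The 5 genes H2-Q4, H2-Q6, H2-Q7, H2-D1 and H2-K1 each held both matches, and H2-T23, B2m, Tap1 and Tapbp had no match to these letters. The B2m window does hold gaaactgaaa, and the H2-T23 window tttctctttc. Both resemble the interferon response element letters with a different spacing, so the search did not count them. The interferon response element match read TTTCACTTC in all 5, a form that the letters searched admit. Among 27025 promoters of the same length, 0.984% held the kappaB letters, 7.56% the interferon response element letters and 0.0962% both. The kappaB letters admit the forms found in these genes, GGGATTTCC in H2-Q4 and GGGATTCCC in the others, and the 5 genes are close copies. The shares are therefore no test of these genes. H2-Q6 and H2-Q7 were 97.7% identical over 260 aligned bases, H2-D1 and H2-K1 were 88.3% identical over 239, and H2-T23 shared 67.6% to 71.9% with the other 5. The kappaB match began at position -173 from the start in H2-Q4, -172 in H2-Q6, -132 in H2-Q7, -170 in H2-D1 and -110 in H2-K1. The letters CCAAT occurred in all 9 promoters and in 37.9% of all promoters. A match of letters is a description of the window and not evidence of binding.

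In GENCODE release M21 on GRCm38, 9 of the 10 members lie on chromosome 17, within 2116957 bases, and B2m lies on chromosome 2 (122147686 to 122153083, plus strand). H2-Q4 (35379617 to 35385290), H2-Q6 (35424850 to 35430055) and H2-Q7 (35439155 to 35443773) are neighbours on the plus strand, with starts 45233 and 14305 bases apart. The libraries read the 3′ ends of transcripts, and 32.2% of the 90-base windows in the last 400 bases of H2-Q6 transcripts also occur in other genes, H2-Q7, H2-D1 and H2-K1 among them. For H2-Q7 and H2-D1 the share was 0%. Part of the H2-Q6 reads can therefore not be told from those of other genes. The sum of H2-Q6 and H2-Q7 is used as the main measure, but it does not settle the overlap of H2-Q6 with H2-D1 and H2-K1.

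In capillary-like cells, the H2-Q genes were the members that stood out in the running library. H2-Q6 and H2-Q7 together had 286 CPM in running (1069 UMIs, 95% interval 269 to 304), 148 CPM in sedentary (570 UMIs, 136 to 160) and 57.8 CPM in untreated cells (220 UMIs, 50.5 to 66.0). The running library was highest and the untreated library lowest, and no pair of intervals overlapped. The sum was 1.93-fold higher in running than in sedentary cells, a log2 ratio of 0.95 (0.80 to 1.10), and 4.94-fold higher than in untreated cells, a log2 ratio of 2.30 (2.10 to 2.52). With 1 library per group there is no replicate and no test between groups, and these intervals cover counting error only. UMIs of 1 cell are not independent, so the intervals are too narrow as well.

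Taken singly, H2-Q6 had 117 CPM in running, 55.0 in sedentary and 18.9 in untreated cells. H2-Q7, its neighbour, had 169, 92.8 and 38.9 CPM in the same order. H2-Q4, a further gene of the cluster, had 364, 261 and 200.1 CPM. All of them followed the same order of libraries, with intervals that did not overlap. The log2 ratio of running to sedentary was 1.08 (0.85 to 1.33) for H2-Q6, 0.87 (0.68 to 1.06) for H2-Q7 and 0.48 (0.36 to 0.60) for H2-Q4. When cells with at least 1000 UMIs were thinned to 1000, the ratio of H2-Q6 was 0.59 and that of the sum was 0.75. That setting also left out 791 running and 1677 sedentary cells that were shallower, so it changed both the depth and the cells.

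The classical heavy chains had the same order of libraries with smaller differences. H2-D1 had 1775 CPM in running, 1613 in sedentary and 1132 in untreated cells. H2-K1 had 1139, 965 and 641 CPM. The running library was highest for both genes and the intervals did not overlap. The log2 ratio of running to sedentary was 0.14 (0.09 to 0.19) for H2-D1 and 0.24 (0.18 to 0.30) for H2-K1. B2m, the shared light chain, had 2696, 2384 and 1697 CPM and a log2 ratio of 0.18 (0.14 to 0.22).

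H2-T23 went the other way. It had 66.1 CPM in running, 75.4 in sedentary and 90.2 in untreated cells, with 247, 291 and 343 UMIs. Running was lowest and untreated highest, but the intervals of running and sedentary overlapped, as did those of sedentary and untreated. The log2 ratio was -0.19 (-0.44 to 0.06) for running to sedentary and -0.45 (-0.69 to -0.21) for running to untreated.

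The genes of peptide transport and loading did not move together between running and sedentary cells. Tap1 had 63.7 CPM in running, 56.5 in sedentary and 31.0 in untreated cells. Tap2, which pairs with it in the transporter, had 58.6, 76.0 and 50.2 CPM. Tapbp, the gene of tapasin, had 289, 340.4 and 207 CPM. The sedentary library was thus highest for Tap2 and Tapbp, whereas for Tap1 the intervals of running and sedentary overlapped and untreated was lowest. Running to sedentary, the log2 ratio was 0.17 (-0.10 to 0.44) for Tap1, -0.37 (-0.63 to -0.12) for Tap2 and -0.23 (-0.35 to -0.12) for Tapbp. Tap1 made up 52.1% of the UMIs of the transporter pair in running (47.4 to 56.7%), 42.7% in sedentary (38.3 to 47.1%) and 38.2% in untreated cells (32.7 to 43.9%).

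**Figure D1:**
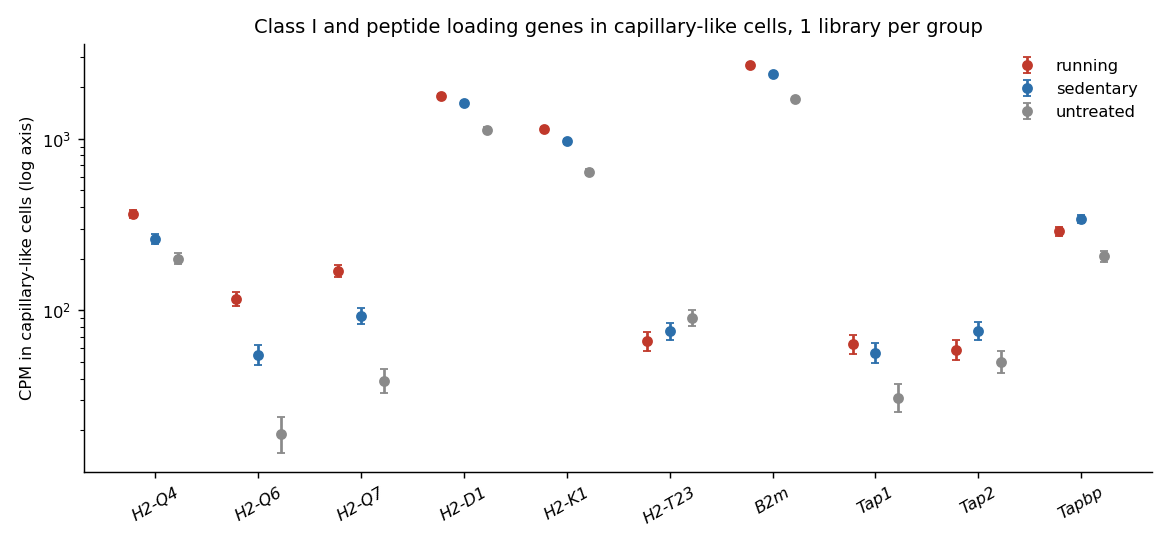
CPM of each of the 10 genes (log axis) in capillary-like cells of the running, sedentary and untreated libraries, 1 point per library with its 95% counting interval. H2-Q6 and H2-Q7 spread widest between the libraries, H2-D1, H2-K1 and B2m keep the same order over a smaller range, H2-T23 is highest in untreated, and Tap2 and Tapbp are highest in sedentary.

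A member was counted as higher where its CPM was at least 25% above that of the other library, and as lower where it was at least 20% below. Both calls needed 50 UMIs over the libraries compared, which all 10 genes had in capillary-like cells. Between running and sedentary, 3 of 10 members were higher (H2-Q4, H2-Q6 and H2-Q7), where 11.3% of 9543 genes were, and 1 was lower (Tap2), where 12.7% of genes were. Of these calls, the lower one for Tap2 was kept in 9 of 13 alternatives, and its log2 ratio was -0.07 with cells thinned to 1000 UMIs. The median log2 ratio was 0.17 over the members and -0.01 over all genes. Since the genes were picked from this contrast, the counts describe them and support nothing further.

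Against the untreated library the differences were larger and wider. Between running and untreated, 8 members were higher, where 29.3% of 9444 genes were, and 1, H2-T23, was lower, where 16.8% were. Tap2 was the member past neither limit, at a log2 ratio of 0.22 (-0.06 to 0.51). Between sedentary and untreated, 9 members were higher, where 30.5% of 9454 genes were, and none was lower, where 16.1% were. There the sum of H2-Q6 and H2-Q7 had a log2 ratio of 1.35 (1.13 to 1.58), and H2-K1 one of 0.59 (0.52 to 0.66). The median over the members was 0.75 for running to untreated and 0.59 for sedentary to untreated, beside 0.10 and 0.11 over all genes. Both comparisons share the untreated library, and both comparisons of running share the running library. The order of libraries for most members thus includes a step between the sedentary and the untreated library.

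The make-up of the heavy chain pool differed between libraries. The sum of H2-Q6 and H2-Q7 was 7.88% of the UMIs of the 6 heavy chain genes in running (7.43 to 8.35%), 4.82% in sedentary (4.44 to 5.23%) and 2.73% in untreated capillary-like cells (2.38 to 3.11%). H2-T23 was 1.82%, 2.46% and 4.25% of the pool. H2-Q7 and H2-Q6 thus took a larger share of the pool in running, H2-T23 a smaller one, and the intervals of the libraries did not overlap for either. H2-D1 held 48.9%, 52.7% and 53.4%, and H2-K1 31.4%, 31.5% and 30.2%. Because a 3′ library takes 1 end per transcript, these shares were not divided by transcript length. B2m had 0.743 UMIs per heavy chain UMI in running, 0.778 in sedentary and 0.80005 in untreated cells.

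The share of cells with a UMI was compared at equal depth, since the sedentary capillary-like cells were shallower. After thinning to 1000 UMIs, 338 of 1632 running cells (20.7%, 18.8 to 22.8%) had a UMI of H2-Q6 or H2-Q7, as had 188 of 1558 sedentary (12.1%, 10.5 to 13.8%) and 103 of 1911 untreated cells (5.39%, 4.42 to 6.50%). The intervals did not overlap, and the order was that of the CPM. The shares with no thinning were 31.9%, 14.0% and 7.95%, and thinning left out 791, 1677 and 604 shallower cells. The 10 genes together had a median of 6, 5 and 4 UMIs per 1000. All 10 were at 0 in 18 running, 22 sedentary and 93 untreated thinned cells.

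Erythrocyte-like barcodes, which should make little or no class I RNA, had 176 CPM of H2-Q6 and H2-Q7 in running (8 UMIs, 76.0 to 347), 49.5 in sedentary (2 UMIs, 5.99 to 179) and no UMI among 8448 in untreated. These levels lay below those of the capillary-like cells, but their intervals overlapped in running and in sedentary, and the part of free RNA in the capillary-like levels was not tested. After thinning, 0 of 9, 1 of 11 and 0 of 4 of them had a UMI of either gene.

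Leukocytes carry much class I RNA and were gated out by CD45, which Ptprc encodes. Ptprc had 3 UMIs in running capillary-like cells and none in sedentary or untreated ones. The 4 markers of all leukocytes summed to 15, 1 and 0 UMIs, with 4, 1 and 0 of them detected. The 9 macrophage and dendritic markers summed to 91 UMIs in running (24.3 CPM, 5 detected), 20 in sedentary (5.18 CPM, 3 detected) and 19 in untreated (4.996 CPM, 3 detected), and Adgre1, C1qa, C1qb and Itgax were at 0 in all libraries. They were thus higher in the running library, as the H2-Q genes were, and their part in the result was not tested. In artery-like cells Ptprc was at 0 in all 3 libraries, but the 4 markers of all leukocytes summed to 3, 5 and 3 UMIs. The 9 macrophage and dendritic markers summed there to 13 UMIs in running (14.97 CPM), 14 in sedentary (16.6 CPM) and 14 in untreated (6.51 CPM). Their level in running was thus above untreated and not above sedentary, and their part in the artery-like levels was not tested. Erythrocyte markers had 672 CPM in running, 1003 in sedentary and 88.9 in untreated capillary-like cells, and pericyte and smooth muscle markers 224, 158 and 187 CPM.

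The same genes were read in arteries and veins, whose cells are separate from the capillary-like cells but come from the same libraries. In artery-like cells H2-Q6 and H2-Q7 together had 446 CPM in running (402 to 492), 293 in sedentary (258 to 332) and 155 in untreated (139 to 172). In vein-like cells they had 296 CPM (258 to 338), 174 (143 to 211) and 71.7 (59.1 to 86.2). The order of libraries was the same in each class, with no overlap of intervals. The log2 ratio of running to sedentary was 0.60 (0.37 to 0.84) in artery-like and 0.76 (0.42 to 1.11) in vein-like cells, and that of running to untreated was 1.53 (1.31 to 1.74) and 2.04 (1.71 to 2.39).

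Of the 10 members in artery-like cells, 3 were higher in running than in sedentary (H2-Q6 at 0.46, H2-Q7 at 0.72 and Tap2 at 0.45 on the log2 scale), where 14.1% of 5010 genes were. Tapbp was lower, at -0.35 (-0.55 to -0.14), where 14.0% of genes were. Of 11 alternatives, 7 kept the call of Tapbp and 3 that of Tap2. H2-Q4, at 402 CPM in running and 363 in sedentary, had a ratio of 0.15 (-0.08 to 0.37), and its intervals overlapped. In vein-like cells 4 members were higher (H2-Q4 at 0.59, H2-Q6 at 0.84, H2-Q7 at 0.70 and Tap1 at 0.42), where 15.2% of 4041 genes were. H2-T23 (-0.46) and Tap2 (-0.48) were lower there, where 16.8% of genes were, but the intervals of these 2 and of Tap1 included 0. Against untreated, log2 ratios ran from 0.18 for H2-T23 to 1.60 for H2-Q6 in artery-like cells, and H2-Q7 had 1.47. With each library clustered alone, these were 0.90 for H2-Q6 and 0.75 for H2-Q7. In vein-like cells 7 members were higher than in untreated, where 25.5% of 5834 genes were, and the lower one was Tap2 (-0.37, -1.01 to 0.22), where 24.2% of genes were lower. That call was kept in 6 of 11 alternatives, with log2 ratios of -0.58 to -0.14.

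Some class II genes, which mark antigen-presenting cells, had more UMIs in the vein-like cells of the running library. Cd74 had 27 UMIs in running (36.2 CPM), 1 in sedentary and 2 in untreated vein-like cells, H2-Eb1 10, 2 and 2, H2-Aa 5, 1 and 0, and H2-Ab1 4, 5 and 3. Ptprc was at 0 in vein-like cells of all 3 libraries, and the 9 macrophage and dendritic markers summed to 7, 4 and 23 UMIs (9.38, 6.64 and 14.6 CPM), with 3, 2 and 4 detected. The part of such RNA in the vein-like levels of the members was not tested.

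**Figure D2:**
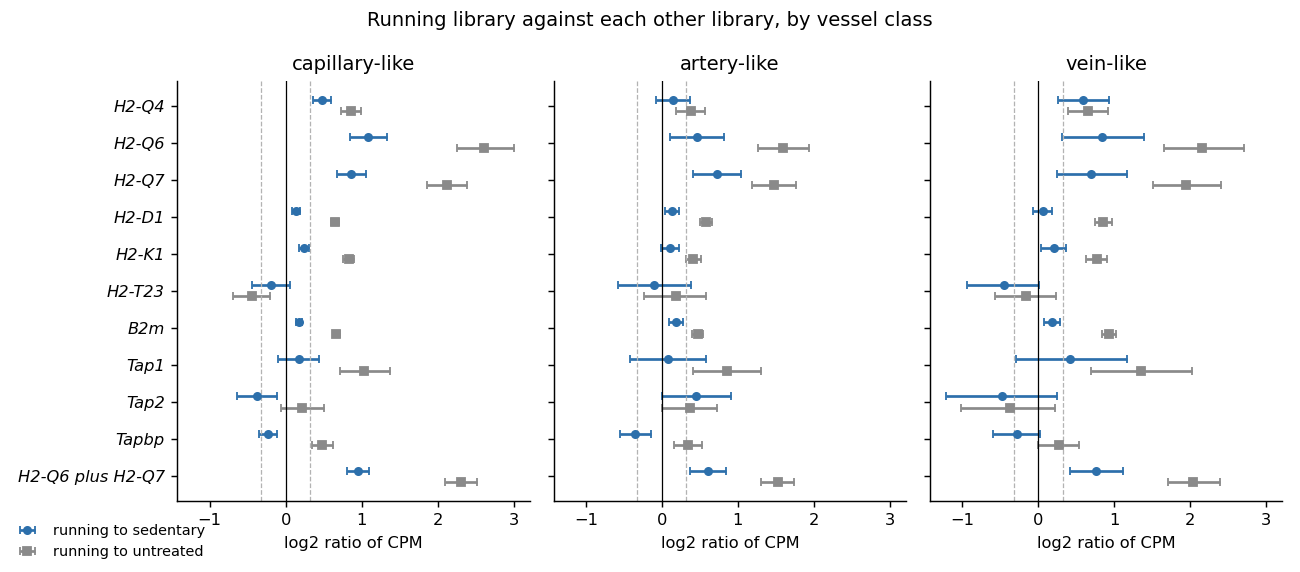
Log2 ratio of CPM of the running library to the sedentary (circles) and the untreated library (squares) for each gene and for the sum of H2-Q6 and H2-Q7, in capillary-like, artery-like and vein-like cells, with 95% counting intervals and dashed lines at the limits of 25% higher and 20% lower. The sum of H2-Q6 and H2-Q7 lies right of 0 in every panel, at 0.95, 0.60 and 0.76 against sedentary, while Tap2 lies on different sides of 0.

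Within each library, the classes differed in level. Summed over the 10 genes, artery-like cells had 8049, 7299 and 5599 CPM in running, sedentary and untreated, against 6737, 5919 and 4106 CPM in capillary-like cells. Their log2 ratio averaged 0.34 ± 0.10 (SD over 3 libraries). For H2-D1 the ratio was 0.53 ± 0.04, for Tapbp 0.61 ± 0.07, for Tap1 0.52 ± 0.09 and for the sum of H2-Q6 and H2-Q7 1.02 ± 0.39. The last differed by library, at 0.64 in running, 0.99 in sedentary and 1.42 in untreated. B2m did not follow the heavy chains, at -0.06, -0.07 and 0.14, so artery-like cells had 0.535, 0.525 and 0.572 B2m UMIs per heavy chain UMI, lower than in capillary-like cells of each library.

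Vein-like cells had 6030.2, 5429 and 3380 CPM over the 10 genes in running, sedentary and untreated, a mean log2 ratio to capillary-like cells of -0.19 ± 0.08. H2-T23, at 99.2, 136 and 111 CPM, was above capillary-like cells in each library by 0.59, 0.86 and 0.30 on the log2 scale, and its intervals excluded 0. The sum of H2-Q6 and H2-Q7 was also above in each library, by 0.05, 0.24 and 0.31, with intervals that included 0. In 43 running, 10 sedentary and 27 untreated lymphatic-like cells the 10 genes together were lowest of the 4 classes, with a mean log2 ratio of -1.25 ± 0.07. H2-T23 had 11, 0 and 14 UMIs in these cells. That was 5.67%, 0% and 14.9% of their heavy chain UMIs, against 1.82%, 2.46% and 4.25% in capillary-like cells. H2-Q6 and H2-Q7 had 4 UMIs in running lymphatic-like cells (30.8 CPM, 8.38 to 78.8) and none in sedentary or untreated ones. A count of 0 there allows up to 145 CPM in sedentary and 37.8 CPM in untreated cells, and the sedentary limit lies within the interval of the capillary-like level there. Classes came from clusters of the same cells, so these ratios are descriptions.

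**Figure D3:**
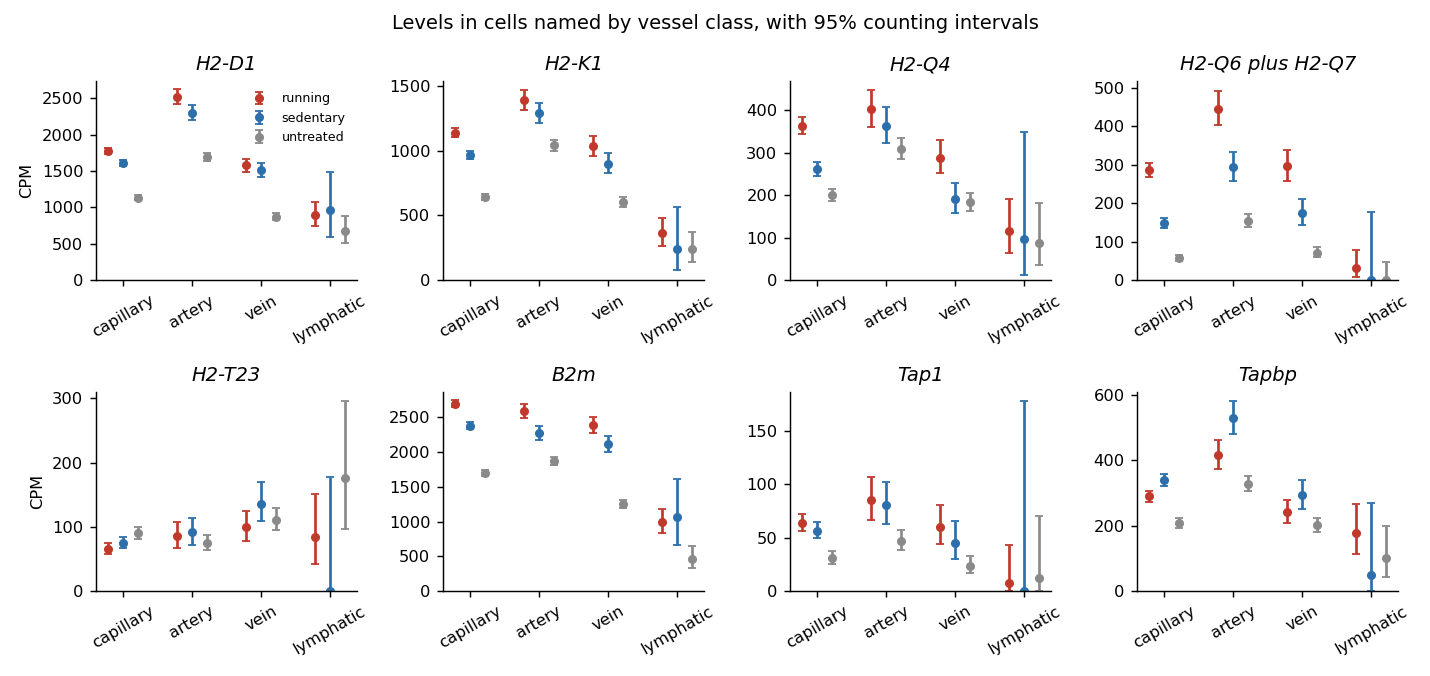
CPM of 8 genes or sums (1 panel each) in capillary-like, artery-like, vein-like and lymphatic-like cells of the running, sedentary and untreated libraries, with 95% counting intervals. Most panels are highest in artery-like cells and lowest in lymphatic-like cells. B2m is level between capillary-like and artery-like cells, and H2-T23 is higher in vein-like than in capillary-like cells.

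The mix of clusters within a class differed between libraries, so H2-Q6 and H2-Q7 were also read cluster by cluster. Running exceeded sedentary in all 10 clusters with at least 50 cells in both libraries, with log2 ratios of 0.40 to 1.34. These clusters are parts of the same libraries and not replicates, and the capillary-like ones hold the cells from which the genes were picked. The unnamed clusters 10 and 13 had fewer cells. Running was above sedentary in cluster 10 and was not above it in cluster 13. In cluster 0 the sum had 212 CPM in running and 99.5 in sedentary cells (1.09, 0.79 to 1.40). In the shallow cluster 1, it had 467 and 184 CPM (1.34, 1.03 to 1.66). In cluster 2, led by the capillary genes Gpihbp1 and Car4, it had 313 and 146 CPM (1.10, 0.82 to 1.38). The intervals of clusters 3 (0.94, -0.01 to 2.00) and 9 (0.40, -0.30 to 1.12) included 0. Against untreated the ratio ran from 1.14 in cluster 7 to 2.67 in cluster 1.

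The highest level was in cluster 7, an artery-like cluster led by Mgp, Cytl1 and Gja5, with 712 CPM of the sum in running, 481 in sedentary and 323 in untreated. Its 10 genes together had 11838, 10660.2 and 7946 CPM. The other artery-like cluster, cluster 4, had 326, 199 and 119 CPM of H2-Q6 and H2-Q7. Among the vein-like clusters, cluster 8 (led by Lrg1 and Ackr1) had 448, 221 and 116 CPM, and cluster 6 (Selp and Vwf) 217, 134 and 64.3 CPM. The levels thus varied within a class by more than between some classes.

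**Figure D4:**
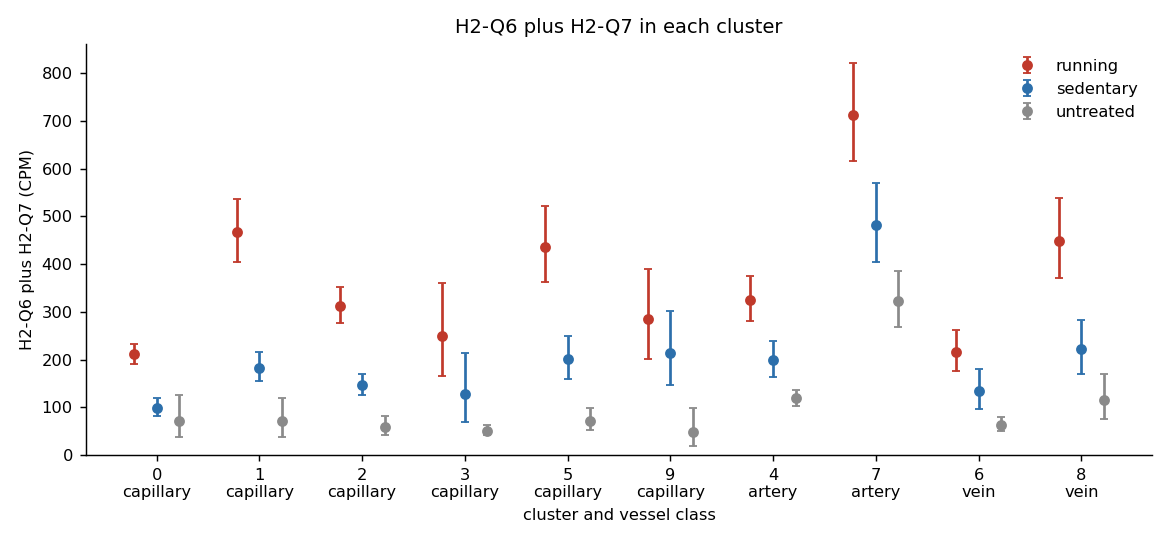
CPM of H2-Q6 and H2-Q7 together in each cluster of capillary-like, artery-like and vein-like cells, for the running, sedentary and untreated libraries, with 95% counting intervals. The running point is highest and the untreated point lowest in all 10 clusters, and cluster 7 is highest in each library.

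Cluster 9 was led by the interferon-stimulated genes Ifit1, Ifit3, Isg15 and Rsad2 and held 84 running, 103 sedentary and 92 untreated cells. Tap1 was higher there than in the other capillary-like cells, by 1.52 on the log2 scale in running (0.80 to 2.11), 1.32 in sedentary (0.54 to 1.95) and 1.55 in untreated (0.50 to 2.36). H2-T23 followed with a mean of 0.79 ± 0.18, Tap2 with 0.69 ± 0.20, H2-Q4 with 0.39 ± 0.07 and B2m with 0.32 ± 0.08 (SD over 3 libraries). The sum of H2-Q6 and H2-Q7 had no common direction, at 0.01, 0.59 and -0.19.

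**Figure D5:**
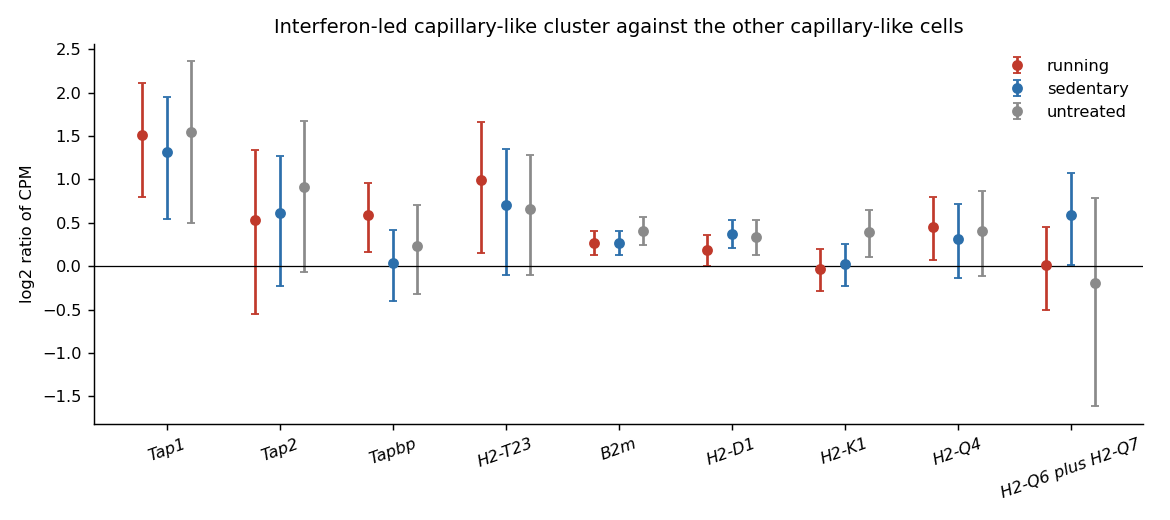
Log2 ratio of CPM in the interferon-led cluster 9 to the other capillary-like cells, for each gene in the running, sedentary and untreated libraries, with 95% counting intervals. Tap1 is above 1 in all 3 libraries, and the sum of H2-Q6 and H2-Q7 has no common direction, with its sedentary point highest.

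The thinned capillary-like cells were also divided by their UMIs of 21 interferon-stimulated genes. Running cells with 3 or more, 1 or 2, and 0 such UMIs had 0.0867, 0.0519 and 0.0251 Tap1 UMIs per 1000, and 0.425, 0.371 and 0.276 H2-Q4 UMIs per 1000. For H2-Q6 and H2-Q7 together the values were 0.245, 0.2595 and 0.226, with overlapping intervals. In sedentary cells they were 0.176, 0.120 and 0.117, and in untreated cells 0.0685, 0.0507 and 0.0490. In running cells Tap1 was lower with fewer interferon-stimulated UMIs, and its intervals at 3 or more and at 0 did not overlap. H2-Q6 and H2-Q7 were higher in running than in sedentary cells at each number of such UMIs, although the intervals overlapped among cells with 0. In sedentary and in untreated cells their sum was highest with 3 or more such UMIs. The part of interferon in these levels was not tested, and the genes were picked from running against sedentary cells.

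The other genes of the pathway were read in the same way, and in running to sedentary capillary-like cells 11.3% of all genes were higher and 12.7% lower. The immunoproteasome, whose subunits replace standard ones and whose activator shapes peptide cutting, had 0 of 5 genes past either limit, from Psmb9 (132 and 121 CPM, log2 ratio 0.13) and Psmb10 (178 in both, 0.00) to Psme1 (-0.19) and Psme2 (239 and 274 CPM, -0.20). The standard proteasome list had 0 of 4, from Psme3 (0.20) and Psmb6 (0.02) to Psmb7 (0.01) and Psmb5 (106 and 125 CPM, -0.24). Loading and trimming genes of the endoplasmic reticulum had 0 of 5, from Tapbpl (0.13) and Calr (-0.03) to Canx (-0.18) and the peptide trimming enzyme Erap1 (31.6 and 39.4 CPM, -0.32).

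Among 12 regulators of class I genes, 4 were higher and none lower in running than in sedentary capillary-like cells, beside 11.3% and 12.7% of all genes. The lowest of these 4 ratios, 0.36 from 30 and 24 UMIs, had an interval that included 0 (-0.46 to 1.21). In artery-like cells 1 was higher and none lower of 8 with enough UMIs, beside 14.1% and 14.0% of all genes. In vein-like cells 2 were higher and 2 lower of 8, beside 15.2% and 16.8%. Irf1, an interferon-induced activator, had 322 CPM in running, 234 in sedentary and 137 in untreated cells, a log2 ratio of 0.46 for running to sedentary. Socs1, which damps cytokine signalling, had 91.5, 64.5 and 32.9 CPM and a ratio of 0.50, and it was among the leading genes of cluster 0. Jak2 (-0.17) and the receptor gene Ifngr1 (-0.20) were the lowest. Nlrc5, the class I transactivator, is named outside the rule for named genes, after its values were seen, and had 14.2, 13.5 and 6.57 CPM with a ratio of 0.07.

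Of 17 other class I and class I-like genes, 9 had enough UMIs, and 2 were higher and 1 lower in running than in sedentary cells, beside the same 11.3% and 12.7%. H2-T10 had 20.3 and 13.7 CPM (0.56, 0.04 to 1.10). Cd1d1, a lipid-presenting gene, had 35 and 27 UMIs, and its interval included 0 (0.41, -0.35 to 1.20). Cd1d1 was far higher in untreated, at 43.1 CPM. The lowest were Procr (-0.05) and Mr1, which presents vitamin metabolites (7.76 and 11.4 CPM, -0.55). The interval of Mr1 also included 0 (-1.28 to 0.15). None of 8 class II genes had enough UMIs in any of the 3 classes, with 6, 2 and 0 UMIs of Cd74 in running, sedentary and untreated capillary-like cells.

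The 21 interferon-stimulated genes were read in the same way. Between running and sedentary capillary-like cells, 1 was higher, where 11.3% of all genes were, and 6 were lower, where 12.7% were, with a median log2 ratio of -0.21. In artery-like cells 3 were higher and 4 lower of 20 with enough UMIs (median 0.00, with 14.1% and 14.0% of all genes past the limits). In vein-like cells 5 were higher and 2 lower of 14 (median 0.14, with 15.2% and 16.8% of all genes). Iigp1, an interferon-inducible GTPase, had 495 CPM in running and 318 in sedentary (0.64), and Tgtp2, of the same family, 30.5 and 24.6 CPM (0.31). At the other end were Bst2, with 617 and 854 CPM (-0.47), and Ifit3, with 57.3 and 88.4 CPM (-0.63). Against untreated, 7 were higher and 2 lower in running capillary-like cells, where 29.3% and 16.8% of all genes were. In sedentary ones 14 were higher and 1 lower, where 30.5% and 16.1% were.

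The genes whose pattern was most like that of H2-Q6 and H2-Q7 were sought over 9 points, the 3 vessel classes in the 3 libraries, among 7664 genes with the 10 members left out. By Pearson's r of log2(CPM + 1) these were Magoh (0.96), Ubac2 (0.96), Scamp2 (0.96), Pfdn2 (0.95) and Igtp (0.94). Igtp had 59.9, 48.7 and 33.7 CPM in running, sedentary and untreated capillary-like cells and 85.2, 67.6 and 41.4 in artery-like cells. Among the other members, r was 0.95 for H2-K1, 0.93 for Tap1, 0.89 for H2-D1 and -0.24 for H2-T23. The points share libraries and cell processing, so these values are descriptions.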

How the data were processed

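Single-cell RNA-seq was done on 3 libraries, 1 per group. Per the labels' protocols, the kit was version 2 of the Single Cell 3' chemistry of 10x Genomics, and reads were counted by Cell Ranger 2.0.2 against GRCm38.p5, per the submitters' processing notes. The gene annotation release is not given in the sources used here. The values deposited by the authors were raw UMI counts per gene and barcode, 5983685 in running, 5625068 in sedentary and 8002866 in untreated.

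Barcodes with at least 300 genes and at most 10% mitochondrial UMIs were kept (11554 of 11715). Scrublet marked 0 of 11554, so doublets were in effect not removed. Cells were clustered together in scanpy 1.11.5 (scaled to 10000 UMIs per cell, 2000 variable genes, 30 principal components, 15 neighbours, Leiden resolution 1.0, leidenalg 0.10.2), and clusters were named by the mean level of 18 marker lists, centred over clusters. A name needed at least 3 detected markers, and score limits of 0.3 for a vessel class, -0.5 for endothelial genes and 1.0 for other cell types were set after the data were seen. They left clusters 10 (33 running, 43 sedentary and 59 untreated cells) and 13 (55, 18 and 9) unnamed.

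UMIs were summed per class and library and scaled to CPM. A prior count of 0.5 was added for log2 ratios, which carry exact conditional Poisson 95% intervals, while levels carry exact Poisson and shares Clopper-Pearson intervals (scipy 1.17.1), checked on simulated data. A limit for a count of 0 is that of 3 counts. The 10 members, the 7 gene lists and the comparisons were chosen with earlier results of these data known. All members are described, and of each list the 2 highest and 2 lowest log2 ratios of running to sedentary in capillary-like cells, with at least 50 UMIs. The 5 genes most like H2-Q6 and H2-Q7 needed 200 UMIs over the points, and mitochondrial, ribosomal and numbered gene models were left out.

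Alternatives changed the cell filters, the doublet treatment, the clustering, the scaling (edgeR 4.0.16 for TMM factors only), the depth and the minimum count. Leaving out cluster 1 or cluster 9 was chosen after seeing the data.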

Additional observations from a re-analysis of the deposited data

Results flagged for a closer look

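Tap2, a subunit of the peptide transporter, stood on different sides of 0 in different vessel classes. Running to sedentary, its log2 ratio was 0.45 in artery-like cells (100 UMIs in running, 71 in sedentary), -0.37 in capillary-like cells (219 and 293 UMIs) and -0.48 in vein-like cells (32 and 36 UMIs). The artery-like value exceeded the capillary-like one by 0.82 and the vein-like one by 0.92. Running to untreated, it was 0.37 in artery-like cells (100 UMIs in running, 192 in untreated) and -0.37 in vein-like cells (32 and 88 UMIs), a difference of 0.74. These differences between classes were not tested, since each group had 1 library. The artery-like call of running to sedentary was kept in 3 of 11 alternatives, with log2 ratios of 0.09 to 0.56.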

How the results depend on the processing

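No paired analysis was possible because each group had 1 library and no test was made. Over up to 14 alternatives, the log2 ratio of H2-Q6 and H2-Q7 together in running to sedentary cells stayed positive, from 0.75 to 1.00 in capillary-like, 0.42 to 0.88 in artery-like and 0.68 to 0.85 in vein-like cells, and in running to untreated capillary-like cells it ran from 2.13 to 2.46. Of these, 0.75 came with cells thinned to 1000 UMIs (0.95 as reported) and 0.88 with at most 5% mitochondrial UMIs (0.60 as reported), and the cause was not tested. In capillary-like cells 3 members were higher in running than in sedentary under all 14 alternatives. The number lower was 1 as reported, 0 with at least 500 genes per cell, at Leiden resolution 0.5 and without cluster 1 (chosen after seeing the data), and 2 with the mean over cells of counts per 10000. With cells thinned to 1000 UMIs the lower member was H2-T23 (-0.41) and not Tap2 (-0.07). Between sedentary and untreated, 8 or 9 members were higher. The log2 ratio of the 10 genes in artery-like to capillary-like cells, 0.34 as reported, was 0.45 with at least 500 genes, 0.46 with at most 5% mitochondrial UMIs, 0.44 with each library clustered alone and 0.22 with cells named one by one. That of vein-like to capillary-like cells was -0.078 with TMM scaling, against -0.19 as reported. TMM factors in capillary-like cells were 1.03 in running, 1.03 in sedentary and 0.948 in untreated, which lowers each ratio to untreated, and that of H2-D1 in running was then 0.53 against 0.65 as reported. For single members in capillary-like cells, 124 of 130 values of running to sedentary stayed within their counting interval and none changed sign. With each library clustered alone, Tap2 (-0.09), Tapbp (-0.02) and H2-T23 (-0.19, against 0.18 as reported) changed sign in running to untreated artery-like cells. H2-T23 in running to sedentary artery-like cells was 0.18 with the mean over cells of counts per 10000, against -0.10 as reported. H2-D1, H2-Q4, H2-T23, Tap1 and Tap2 each crossed 0 in at least 1 other comparison of artery-like or vein-like cells. Depth limits the transporter genes most, since in vein-like cells Tap1 had 45 UMIs in running and 27 in sedentary, and Tap2 32 and 36.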

Other observations

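The 2 endothelial clusters that were given no vessel name differed in these genes. Cluster 10, led by Penk, had 116 CPM of H2-Q6 and H2-Q7 in running (13 UMIs), 59.4 in sedentary (6 UMIs) and 20.4 in untreated (3 UMIs), log2 ratios to capillary-like cells of -1.25, -1.20 and -1.29. Its 10 genes together had 4319, 4524 and 3588 CPM, a mean ratio of -0.41 ± 0.22 (SD over 3 libraries). H2-T23 had no UMI there in running, 5 in sedentary and 8 in untreated.

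Cluster 13, led by Apln, a gene of endothelial tip cells, held 55 running, 18 sedentary and 9 untreated cells. Its 10 genes had 7029, 8037 and 4068 CPM, and H2-Q6 and H2-Q7 together had 370.0 CPM in running (48 UMIs, 273 to 491) and 420 CPM in sedentary (19 UMIs, 253 to 655). The running value was not above the sedentary one in this cluster, and the intervals overlapped. H2-K1 had 1426, 1391 and 697 CPM.

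Pericyte-like cells, which were outside the endothelial classes, had 107 CPM of H2-Q6 and H2-Q7 in running (14 UMIs), 75.8 in sedentary (2 UMIs) and 6.97 in untreated (1 UMI). Their 10 genes together had 2611, 2160.5 and 2041 CPM.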
